A study of Mus musculus with 6 samples.

Results

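Dystrophin, utrophin, dystroglycan, 4 sarcoglycans and sarcospan are described here in gastrocnemius muscle that lacks normal dysferlin. The 8 genes are Dmd, Utrn, Dag1, Sgca, Sgcb, Sgcd, Sgce and Sspn, taken by symbol from the 57010 gene identifiers of the count matrix, and each matched 1 identifier. The mutant group was 3 mice of the strain B6.A-Dysfprmd/GeneJ, homozygous for Dysfprmd, a retrotransposon insertion within the dysferlin gene Dysf. The control group was 3 C57BL/6 mice given as wild type at Dysf. Mice of both groups were 3 months old and untreated, and each library came from the muscle of 1 animal. Mutant replicates 1 and 2 were female, and mutant replicate 3 and the 3 controls were male. The labels do not say that mutants and controls were littermates. The mutation is carried in every cell type, and RNA came from whole muscle, so fewer cells of a type and less RNA per cell cannot be told apart.

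The dystrophin complex spans the sarcolemma, the membrane of the muscle fibre. Dystrophin binds the actin cytoskeleton inside the fibre and dystroglycan in the membrane, and dystroglycan binds laminin in the basement membrane outside. The sarcoglycans and sarcospan form a membrane subcomplex beside dystroglycan, and syntrophins and dystrobrevins bind on the inner face. Loss of dystrophin or of a muscle sarcoglycan causes muscular dystrophy in humans and mice. Dysferlin acts in another process, the resealing of a torn sarcolemma, and it is not a core member of this complex.

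Promoter windows are printed for Dmd, whose upstream and internal starts are counted as 1 gene, for the muscle sarcoglycan gene Sgca, and for Sgcd, which had the lowest p of the 8. Each is 300 bases long, from 250 bases before to 50 after a start site, on the gene's strand, from RefSeq on GRCm38.p6, while the deposited counts were made on GRCm39. Windows were present for 7 of the 8 genes (not for Sgce), 10 windows in all. Capitals mark E-boxes (CANNTG, the motif bound by MyoD and its relatives), the CArG box (the motif bound by serum response factor) and GC boxes (GGGCGG on either strand, the motif bound by Sp1). An E-box was in 7 of the 10 windows, a CArG box in 1 and a GC box in 5. Of 32851 such windows of all genes, 72.3% held an E-box, 1.63% a CArG box and 35.7% a GC box, so an E-box match is common. A match is a description of letters and not a bound site.
The upstream Dmd window lies at chrX:82948620-82948919 on the plus strand and held 3 E-boxes and the CArG box of the set.
Dmd upstream start: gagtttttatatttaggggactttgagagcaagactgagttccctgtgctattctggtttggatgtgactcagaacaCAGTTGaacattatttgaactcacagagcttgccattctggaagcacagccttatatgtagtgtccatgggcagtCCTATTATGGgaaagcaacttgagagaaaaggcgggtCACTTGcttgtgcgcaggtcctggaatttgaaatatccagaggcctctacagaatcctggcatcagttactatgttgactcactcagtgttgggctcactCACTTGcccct
The internal Dmd window, at chrX:85048045-85048344 on the plus strand, belongs to a start inside the gene that gives short transcripts, and it held 3 GC boxes, 2 of them overlapping, and no E-box.
Dmd internal start: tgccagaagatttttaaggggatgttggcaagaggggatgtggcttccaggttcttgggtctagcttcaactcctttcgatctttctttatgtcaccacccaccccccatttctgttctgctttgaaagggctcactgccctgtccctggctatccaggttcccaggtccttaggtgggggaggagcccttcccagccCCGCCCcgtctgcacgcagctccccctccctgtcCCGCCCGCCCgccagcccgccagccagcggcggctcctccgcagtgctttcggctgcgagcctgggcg
The Sgca window, at chr11:94976278-94976577 on the minus strand, held 2 E-boxes.
Sgca start: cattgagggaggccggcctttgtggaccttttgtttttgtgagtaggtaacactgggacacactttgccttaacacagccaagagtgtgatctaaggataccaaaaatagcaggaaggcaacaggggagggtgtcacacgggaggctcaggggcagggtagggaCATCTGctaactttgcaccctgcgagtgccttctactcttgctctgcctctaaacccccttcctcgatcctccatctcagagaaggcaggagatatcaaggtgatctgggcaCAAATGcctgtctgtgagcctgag
The Sgcd window, at chr11:47379276-47379575 on the minus strand, held 2 E-boxes and 1 GC box.
Sgcd start: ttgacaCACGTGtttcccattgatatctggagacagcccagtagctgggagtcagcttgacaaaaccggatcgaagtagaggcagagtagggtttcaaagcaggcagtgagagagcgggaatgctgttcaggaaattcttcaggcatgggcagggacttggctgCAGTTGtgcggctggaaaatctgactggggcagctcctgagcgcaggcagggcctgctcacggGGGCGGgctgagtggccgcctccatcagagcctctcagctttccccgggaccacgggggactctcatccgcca
The deposited counts give 1 value per gene, so transcripts from the upstream and internal Dmd starts were counted together.

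Dysf, the mutated gene, was measured at 15.8, 14.7 and 20.3 CPM in mutant replicates 1 to 3, against 72.3, 99.8 and 145 CPM in control replicates 1 to 3. CPM is the count of a gene as a rate of all read pairs assigned to genes in its library (counts scaled to library size), with that size adjusted by TMM, a method that corrects for differences in RNA composition. Dysf was lower in the mutants (log2 fold change -2.64, SE 0.28, edgeR quasi-likelihood test, adjusted p = 0.0249), in the direction of the genotype labels. With a mutant left out the estimate stayed between -2.55 and -2.80 but did not pass (edgeR adjusted p = 0.228, 0.178 and 0.0637 without mutant replicates 1, 2 and 3). Library totals ran from 35042245 to 43733641 read pairs, and counts of the 8 genes from 334 to 16621 per library. Counting error was not set against the differences between animals, and it weighs most on Sgce, at 334 to 474 counts. The sex-linked genes matched the sex label in 6 of 6 libraries. Ifi202b and H2-Ea-ps, which C57BL/6 mice are known not to express, were read at 1.02 to 7.69 and at 2.37 to 3.44 CPM in the controls. In the mutants they had 0 counts and 1 count over the 3 libraries. The readings of Ifi202b and H2-Ea-ps do not match the strain given for the control mice. A further gene read in the same check, Nnt, was low in both groups and was not tested. It was at 0.185 to 0.407 CPM in mutants and 0.102 to 0.136 CPM in controls. These genes do not settle which strain the control mice were. The loss of dysferlin and the strain background therefore cannot be told apart in any comparison of the groups.

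No difference between mutant and control muscle larger than the spread between animals was detected in any of the 8 genes. All 8 were tested, 0 passed an adjusted p of 0.05 (edgeR), and 0 had an unadjusted p under 0.05. Over all genes 0.199% were called (31 of 15589), 0.0128% higher and 0.186% lower in the mutants, and 6.94% had an unadjusted p under 0.05, so a count of 0 among 8 is near the background. DESeq2 also called 0 of the 8, and so did each of the other 17 settings tried. Of the 8 estimates, 6 were lower in the mutants and 2 were higher, with a median log2 fold change of -0.17 beside -0.00154 over all genes tested. In each of the 8 the CPM ranges of the groups overlapped, while 12.1% of all genes tested had groups that did not overlap, 5.97% with the mutants higher and 6.09% with the mutants lower.

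**Figure D1:**
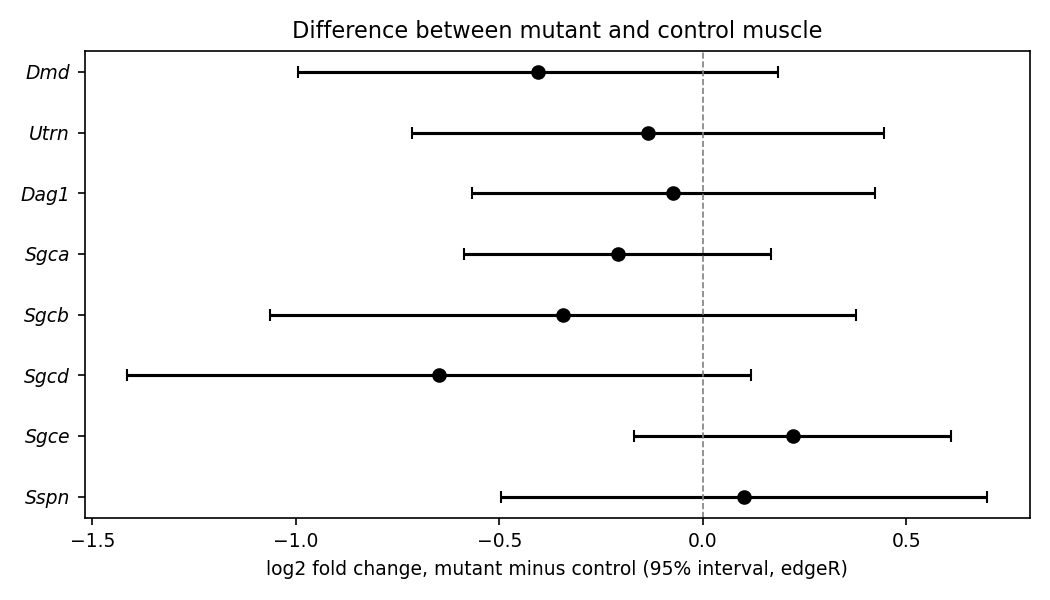
Log2 fold change of each gene, mutant minus control, on the horizontal axis, with points for the edgeR estimate and bars for its 95% interval over 3 mutants and 3 controls. All 8 intervals include 0, and they reach from -1.41 for Sgcd to 0.70 for Sspn.

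Dmd, on chromosome X, encodes dystrophin, the link between actin and the membrane. It was read at 131, 176 and 202 CPM in mutant replicates 1 to 3, against 183, 303 and 189 CPM in control replicates 1 to 3. The female mutants lay below every control, the male mutant lay inside the control range, and control replicate 2 stood above the rest. The means were 169.6 ± 35.5 CPM in mutants and 225 ± 67.7 CPM in controls (SD, n = 3 each). The log2 fold change was -0.41 with an SE of 0.25 (edgeR adjusted p = 0.823). Its 95% interval, as a fold of mutant over control, ran from 0.502 to 1.14, so with 3 animals a group folds within that span could not be told from no difference. Without control replicate 2 the estimate was -0.13, and with males only it was -0.15.

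Utrn, on chromosome 10, encodes utrophin, the autosomal relative of dystrophin, found in adult fibres mainly at neuromuscular and myotendinous junctions and along the whole membrane in regenerating fibres. Its levels were 35.7, 41.8 and 61.2 CPM in mutant replicates 1 to 3, against 42.4, 64.4 and 45.5 CPM in control replicates 1 to 3. As with Dmd, the female mutants lay below every control and control replicate 2 was highest. Utrn averaged 46.2 ± 13.3 CPM in mutants and 50.8 ± 11.9 CPM in controls (SD, n = 3 each). The log2 fold change was -0.13 with an SE of 0.25 (edgeR adjusted p = 0.954), and its 95% interval ran from -0.72 to 0.45. The sign was not stable: the estimate was 0.022 without mutant replicate 1, 0.073 without control replicate 2 and 0.27 with males only. Control replicate 2 also held 1129 CPM summed over 13 genes of regenerating or denervated fibres, against 90.1 to 122 CPM in mutants and 80.5 and 107 CPM in control replicates 3 and 1. In that library Sln (sarcolipin) made up 678 CPM of the sum, and Chrng, the fetal subunit of the acetylcholine receptor, was at 20.1 CPM. Most genes of the list were highest there, but Myh8 and Pax7 were not. Myh8 was at 8.47 CPM, below control replicate 1 (12.2 CPM) and every mutant. Pax7 was at 4.17 CPM, below control replicate 3 (4.70 CPM). The part of these genes in the Utrn and Dmd levels of control replicate 2 was not tested.

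Dag1, on chromosome 9, encodes dystroglycan, a single precursor cut into the laminin-binding alpha and the membrane-spanning beta subunit. It was the most highly counted of the 8, at 276.5, 319 and 381 CPM in mutant replicates 1 to 3, against 268, 337 and 423 CPM in control replicates 1 to 3. The 3 mutants all lay within the range of the controls. Means were 326 ± 52.7 CPM in mutants and 342 ± 77.5 CPM in controls (SD, n = 3 each). Between the groups the log2 fold change was -0.07 with an SE of 0.21 (edgeR adjusted p = 0.972). The 95% interval, -0.57 to 0.42, bounds how large a difference could have gone undetected. The estimate turned positive without mutant replicate 1 (0.034), without control replicate 3 (0.099) and with males only (0.16).

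Sgca, on chromosome 11, encodes alpha-sarcoglycan, which is largely restricted to striated muscle. Its levels were 134, 125 and 159 CPM in mutant replicates 1 to 3, against 143, 152 and 187 CPM in control replicates 1 to 3. The female mutants were below every control and the male mutant was between control replicates 2 and 3. Sgca averaged 139 ± 17.6 CPM in mutants and 161 ± 22.8 CPM in controls (SD, n = 3 each). The log2 fold change was -0.21 with an SE of 0.16 (edgeR adjusted p = 0.860), and -0.017 with males only.

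Sgcb, on chromosome 5, encodes beta-sarcoglycan, an early partner in the assembly of the subcomplex. It was read at 154, 165 and 217 CPM in mutant replicates 1 to 3, against 150.1, 195 and 336 CPM in control replicates 1 to 3. The controls spread more widely than the mutants, with control replicate 3 far above the others. The means were 179 ± 33.5 CPM in mutants and 227 ± 96.8 CPM in controls (SD, n = 3 each), with a log2 fold change of -0.34 and an SE of 0.31 (edgeR adjusted p = 0.889). Without control replicate 3 the estimate was 0.042.

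Sgcd, on chromosome 11, encodes delta-sarcoglycan, which pairs closely with beta-sarcoglycan and is also present in heart and smooth muscle. It had the lowest p of the 8. Its levels were 13.2, 18.7 and 27.4 CPM in mutant replicates 1 to 3, against 21.2, 31.1 and 40.7 CPM in control replicates 1 to 3. Both female mutants lay below every control, and the male mutant lay between control replicates 1 and 2. Sgcd averaged 19.8 ± 7.18 CPM in mutants and 31.0 ± 9.76 CPM in controls (SD, n = 3 each). The log2 fold change was -0.65 with an SE of 0.32 (edgeR adjusted p = 0.777), and the interval ran from 0.375-fold to 1.09-fold. The estimate was -0.96 without mutant replicate 3, -0.42 without mutant replicate 1, -0.87 without control replicate 1, -0.41 without control replicate 3 and -0.17 with males only, so its size depended on which animals were kept. Sgcd did not pass the threshold in any setting tried.

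Sgce, on chromosome 6, encodes epsilon-sarcoglycan, the widely expressed relative of alpha-sarcoglycan, whose gene is imprinted and read from the paternal copy. It was the lowest of the 8, at 10.2, 9.21 and 12.1 CPM in mutant replicates 1 to 3, against 8.97, 8.09 and 9.97 CPM in control replicates 1 to 3. Mutant replicates 1 and 3 lay above every control and mutant replicate 2 between control replicates 1 and 3. Means were 10.5 ± 1.45 CPM in mutants and 9.01 ± 0.940 CPM in controls (SD, n = 3 each). This gave a log2 fold change of 0.22 with an SE of 0.17 (edgeR adjusted p = 0.855). The estimate stayed above 0 in all 17 alternatives, between 0.11 and 0.42, and did not pass the threshold in any.

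Sspn, on chromosome 6, encodes sarcospan, a small membrane protein related to the tetraspanins that sits with the sarcoglycans. Its levels were 129.5, 115 and 199.9 CPM in mutant replicates 1 to 3, against 116, 124 and 174 CPM in control replicates 1 to 3. The male mutant was above every control and mutant replicate 2 was just below every control. Means were 148 ± 45.3 CPM in mutants and 138 ± 31.5 CPM in controls (SD, n = 3 each), with a log2 fold change of 0.10 and an SE of 0.25 (edgeR adjusted p = 0.967). The estimate was -0.18 without mutant replicate 3, -0.015 without control replicate 1 and 0.53 with males only. Exons of Sspn are overlapped by Sspnos, a gene on the opposite strand, and the strand-matched count of Sspn was 102.8% to 104.2% of the unstranded count, against 99.4% to 100.1% for the other 7 genes. Reads on the opposite strand made up at most 0.560% of any of the 8 genes in any library, against 6.60% to 7.20% over all genes.

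**Figure D2:**
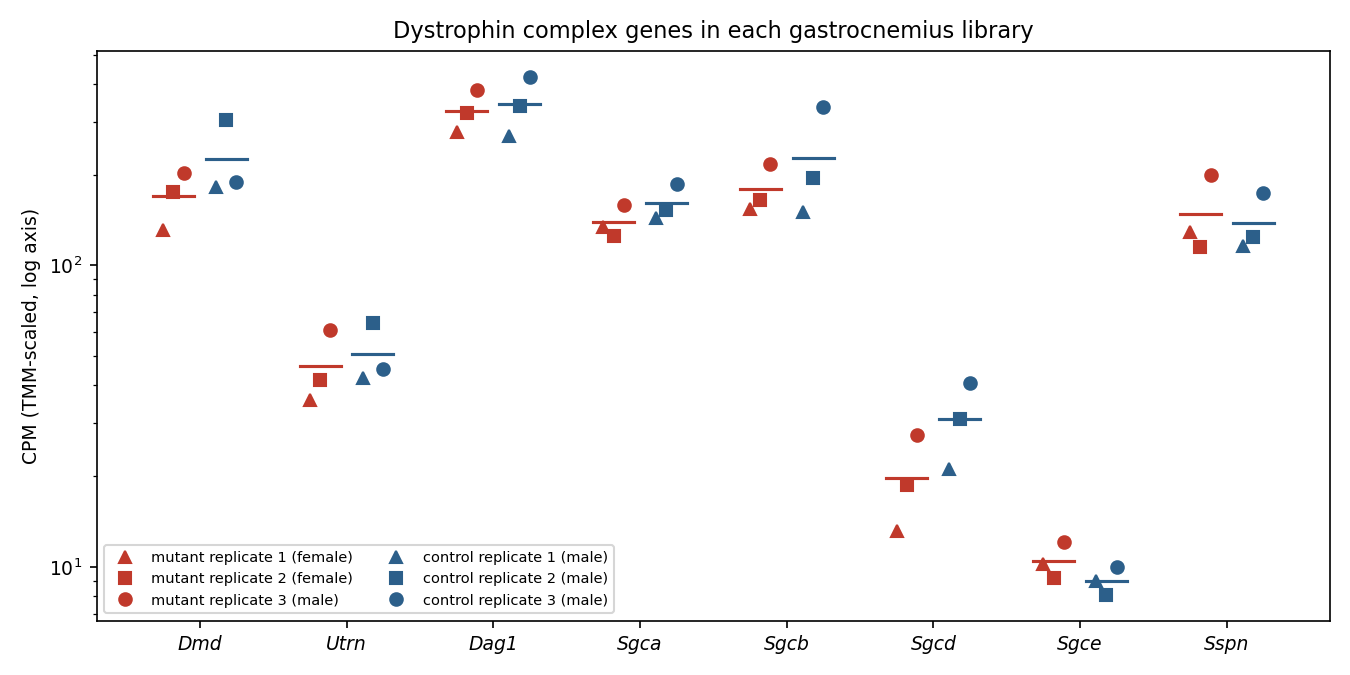
CPM of each gene in each library, with mutants left of controls, a marker for each animal and a line at the group mean. The male mutant, replicate 3, is the highest mutant in all 8 panels, and the groups overlap in all 8.

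The order of the libraries was shared by many of the genes. Mutant replicate 3, the male, was the highest mutant in 8 of 8 genes, by a log2 of 0.30 (Sgca) to 0.78 (Sgcd) over the mean of the female mutants. Against the mean of the controls, also males, it differed by -0.18 (Sgcd) to 0.53 (Sspn) and fell within the control range in 6 of 8 genes, the exceptions being Sgce and Sspn. Among the controls, replicate 3 was highest in 6 genes and replicate 2 in Dmd and Utrn. Control replicate 1 was lowest in 7 genes and replicate 2 in Sgce. How many of all tested genes share these orders, or have both female mutants below every control, was not counted. The orders are therefore not shown to be particular to the 8 genes. Sex and genotype are uneven in this design, with 1 male mutant and 0 female controls, so a sex difference cannot be told apart from a difference between animals. Over the 6 libraries, the highest level was between 1.49 times the lowest (Sgce) and 3.09 times (Sgcd).

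**Figure D3:**
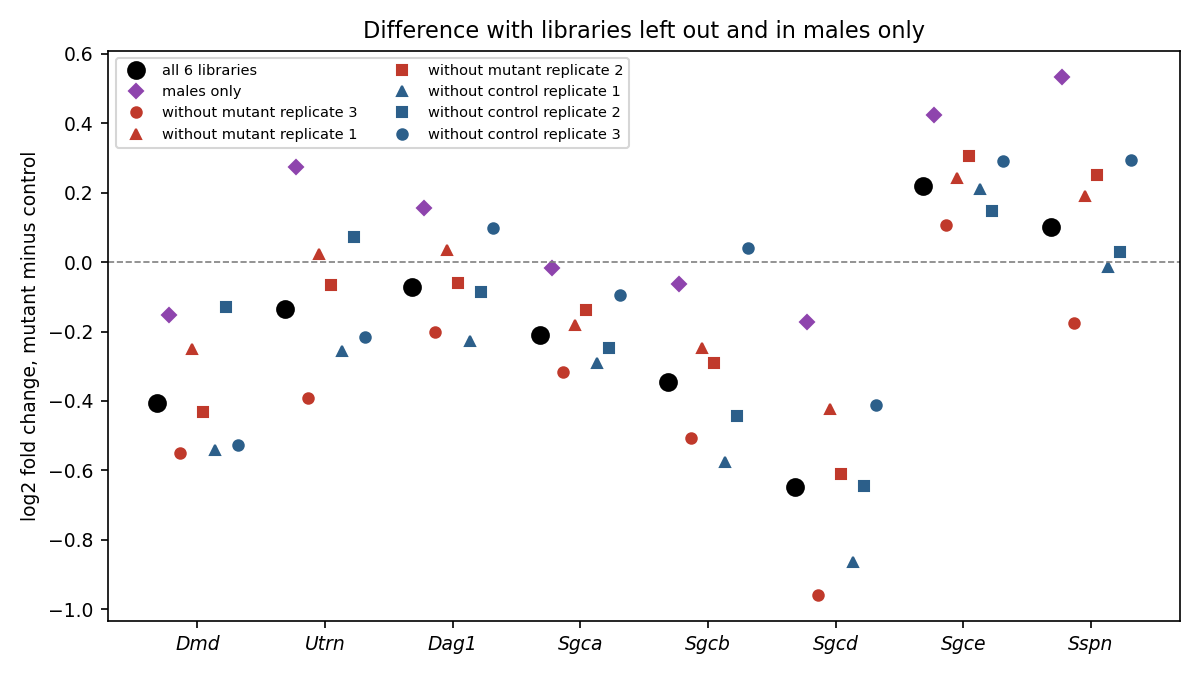
Log2 fold change of each gene, mutant minus control, with all 6 libraries (black), with males only (purple) and with each library left out (red for mutants, blue for controls). Estimates for Utrn, Dag1, Sgcb and Sspn cross 0, Sgcd ranges from -0.96 to -0.17, and Sgce stays between 0.11 and 0.42.

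Marker genes of other cells in the muscle also differed between libraries. The muscle fibre markers, 12 of 12 of them tested, summed to 156997 to 194335 CPM in mutants and 153026 to 200140 CPM in controls, the markers by which the tissue label was checked. The 8 fibroblast markers summed to 7077 CPM in mutant replicate 3 and 5536 CPM in control replicate 3, against 917 and 1270 CPM in the other mutants and 970 and 1451 CPM in the other controls. The collagens Col1a1, Col1a2 and Col3a1 carried this, with 6409 CPM in mutant replicate 3 and 4868 CPM in control replicate 3. The other 5 markers summed to 467.1 to 668 CPM in mutants and 563 to 668 CPM in controls. Mutant replicate 3 and control replicate 3 were also the highest of their groups in 8 and in 6 of the 8 genes described here. The share of all tested genes with that order was not counted. The 10 endothelial and mural markers, in cells that also make utrophin, summed to 825 to 1071 CPM in mutants and 705 to 792 CPM in controls. Rgs5, a gene of pericytes, carried the lack of overlap, at 362 to 478 CPM in mutants and 306 to 352 CPM in controls. The other 9 markers summed to 421 to 593 CPM in mutants and 375 to 440.02 CPM in controls, which overlapped. All 10 estimates were higher in mutants, with a median log2 fold change of 0.24, while 49.8% of all genes tested were higher. In 3 of the 10 genes the groups did not overlap, against 12.1% of all genes tested. Vwf was among them, at 46.2 to 56.7 CPM in mutants and 26.4 to 41.3 CPM in controls. The 7 Schwann cell markers summed to 138 to 549 CPM in mutants and 118 to 395 CPM in controls. The 7 macrophage markers summed to 107 to 175 CPM in mutants and 89.7 to 140.1 CPM in controls. The 6 adipocyte markers summed to 197 to 307 CPM in mutants and 145 to 210.3 CPM in controls. The sums of the Schwann cell, macrophage and adipocyte markers overlapped between the groups. Estimates were higher in mutants in 6 of 7 Schwann cell, 6 of 7 macrophage and 6 of 6 adipocyte markers. The median log2 fold changes were 0.29, 0.33 and 0.92 in that order. Of the fibroblast markers, 4 estimates were higher and 4 lower, and of the fibre markers 7 were higher and 5 lower. The 13 genes of regenerating or denervated fibres went the other way, with 1 estimate higher and 12 lower. Their median log2 fold change was -0.87, and control replicate 2 held 1129 CPM of them, above every other library. The genes set apart in the sums above were chosen after their values were seen. No list had a called gene, and the part of these cells in the levels of the 8 genes was not tested.

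Ratios of counts within a library do not depend on the scaling of libraries, and 3 were compared, each with a 2-sided exact permutation test over the 20 assignments of 6 libraries, whose smallest possible p is 0.1. The ratio of Utrn to Dmd relates the relative to the main protein of the complex. It was 0.272, 0.238 and 0.303 in mutant replicates 1 to 3, against 0.232, 0.213 and 0.241 in control replicates 1 to 3. Mutant replicates 1 and 3 lay above every control and replicate 2 within their range. The mean difference was 0.24 on the log2 scale, 1.18-fold (exact p = 0.2, 0.3 after Benjamini-Hochberg adjustment over the 3 ratios). It was 0.15 without mutant replicate 3, 0.33 without mutant replicate 2 and 0.41 with males only.

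The ratio of Sgce to Sgca sets the widely expressed sarcoglycan against the muscle one. It was 0.0763, 0.0738 and 0.0760 in mutant replicates 1 to 3, against 0.0625, 0.0531 and 0.0534 in control replicates 1 to 3. All 3 mutants lay above all 3 controls. The mutants differed little among themselves (SD 0.026 on the log2 scale). With 334 to 474 Sgce counts per library, counting error bears on the ratio, so that spread does not measure how alike the animals were. The difference was 0.42 on the log2 scale, 1.34-fold (exact p = 0.1, the smallest this design allows, 0.3 after adjustment). It stayed between 0.38 and 0.50 in all 9 alternatives, 0.44 with males only. The summed endothelial and mural markers were also higher in every mutant than in every control, and all 10 estimates were higher in mutants. Without Rgs5, a split chosen after the values were seen, the sums were 421 to 593 CPM in mutants and 375 to 440 CPM in controls, which overlapped. The part of these markers in the ratio was not tested.

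The ratio of summed Sgca, Sgcb and Sgcd counts to Dmd was 2.29, 1.76 and 1.998 in mutant replicates 1 to 3, against 1.72, 1.25 and 2.99 in control replicates 1 to 3. The mutants lay inside the control range. The difference was 0.11 on the log2 scale (exact p = 0.8, 0.8 after adjustment), and -0.18 without control replicate 2.

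**Figure D4:**
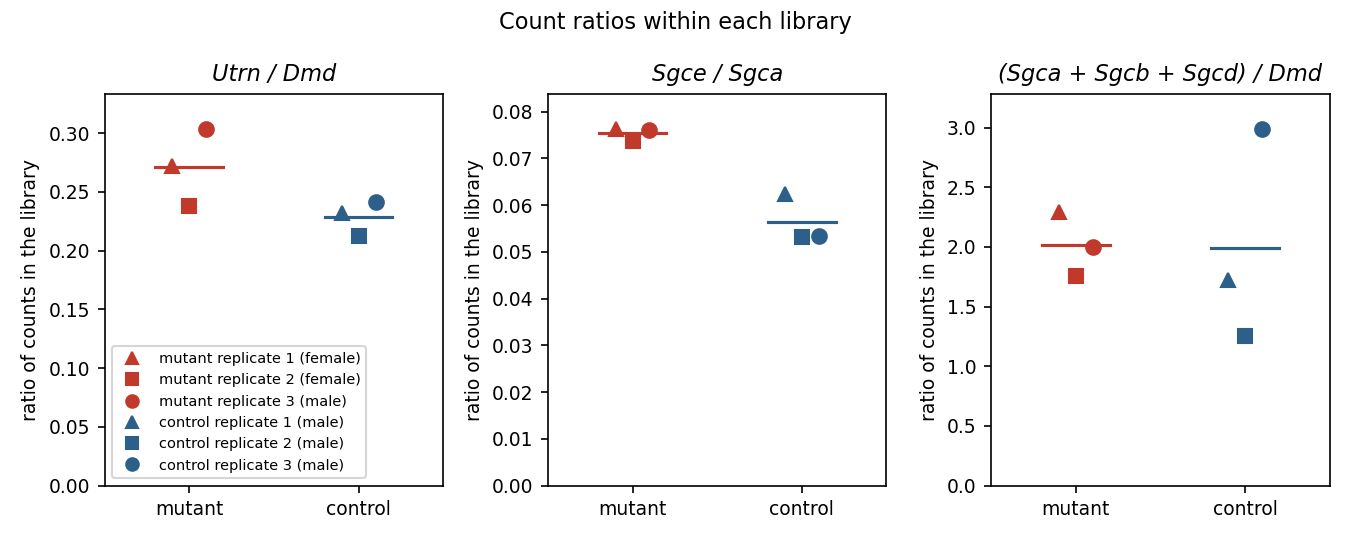
Ratios of counts within each library for Utrn to Dmd, Sgce to Sgca and the summed Sgca, Sgcb and Sgcd to Dmd, mutants left of controls, with a marker for each animal and a line at the group mean. Only the Sgce to Sgca panel, of the 3, shows groups that do not overlap.

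Levels can be compared between genes only per length, and CPM per kilobase of the union of exons in GENCODE M21 was used. Sgca was highest at 80.2 ± 10.1 CPM per kilobase in mutants and 92.7 ± 13.2 in controls (SD, n = 3 each, as for all levels here). Dag1 was next at 51.2 ± 8.29 in mutants and 53.9 ± 12.2 in controls, then Sgcb at 44.1 ± 8.27 in mutants and 56.0 ± 23.9 in controls. Dag1 was above Sgcb in 5 of 6 libraries, and their ranges overlapped. Sspn followed at 29.7 ± 9.06 CPM per kilobase in mutants and 27.7 ± 6.30 in controls, below Sgcb in 6 of 6 libraries, though over libraries these ranges overlapped as well.
Dmd, with 23.801 kilobases of exon union the longest of the 8, stood at 7.13 ± 1.49 CPM per kilobase in mutants and 9.44 ± 2.84 in controls. Sgcd had 2.40 ± 0.870 in mutants and 3.75 ± 1.18 in controls, and Utrn 2.702 ± 0.778 in mutants and 2.97 ± 0.695 in controls. Those neighbours overlapped, with Sgcd above Utrn in 2 of 6 libraries. Sgce was lowest at 0.989 ± 0.137 CPM per kilobase in mutants and 0.849 ± 0.0886 in controls. With the length of the longest coding transcript in place of the exon union, a choice added after seeing the data, Sgce was seventh at 5.91 in mutants and 5.07 in controls. Utrn was then lowest at 3.73 in mutants and 4.10 in controls. Under that length only Sspn and Dmd, of the 7 pairs of neighbours, had ranges that did not overlap.

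**Figure D5:**
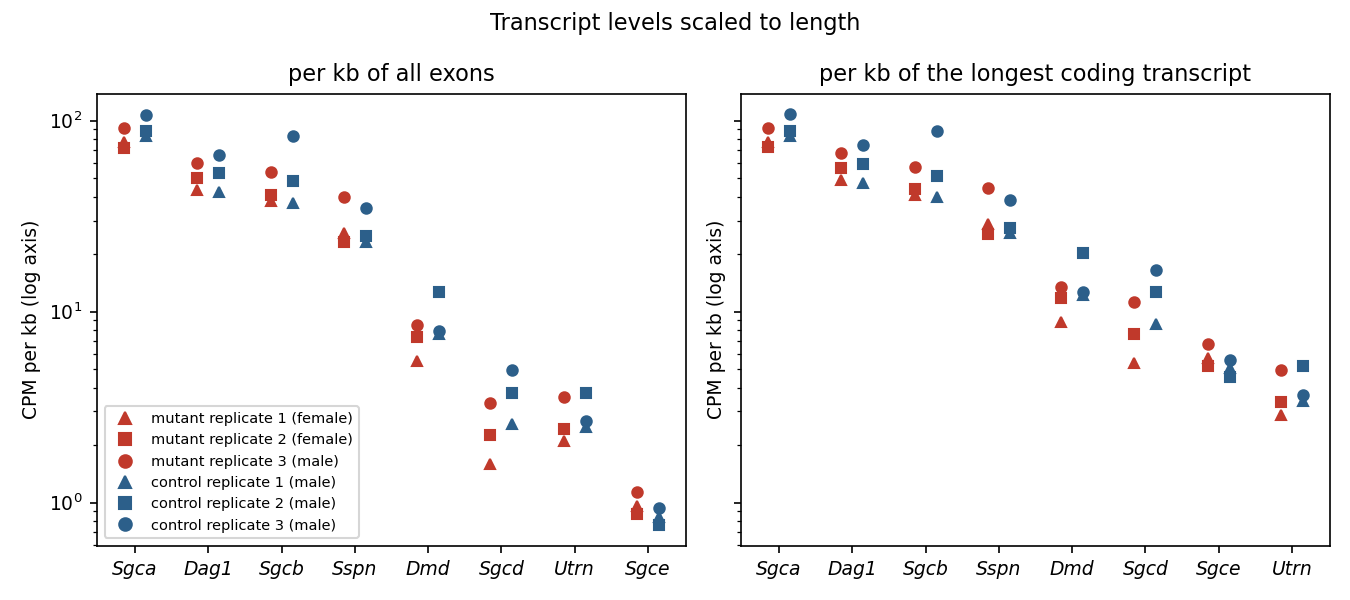
CPM per kilobase on a log axis for each gene, by exon union (left) and by longest coding transcript (right), mutants left of controls, with a point for each animal. By exon union, Sgca, Dag1, Sgcb and Sspn lie at 23.1 or above, and Dmd, Sgcd, Utrn and Sgce lie at 12.7 or below. By longest coding transcript, Dmd reaches 20.3 and Sgcd 16.6.

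The genes whose pattern over the 6 libraries was most like that of Dmd were sought among 11834 tested genes with a mean of at least 1 CPM, by the root-mean-square difference in log2 CPM after centring each gene on its mean. They were Dlg5 at 0.0637, Usp40 at 0.0860 and Rundc3a at 0.101. Utrn was 65th from Dmd at 0.166, and Dmd was 117th from Utrn. For Utrn the nearest were Kbtbd11 at 0.0810, Afap1l2 at 0.0889 and Dgkh at 0.0980. For Dag1 they were Ehbp1l1 at 0.0299, Dock11 at 0.0492 and Zdhhc8 at 0.0502, and the nearest member of the complex was Sgca, in place 278 at 0.147. These are likenesses over 6 libraries that share their depth and scaling, and they are given as a description.

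The partners on the inner face and around the complex (syntrophins, dystrobrevins, other sarcoglycans, nitric oxide synthase and the water channel Aqp4) were 15 genes, of which 11 were tested. None was called by edgeR, 3 estimates were higher in mutants and 8 lower, and the median log2 fold change was -0.13. Of these, 2 had an unadjusted p under 0.05, and Dtnb had the smallest. Dtnb, beta-dystrobrevin, best known outside the muscle fibre, was read at 0.767, 0.827 and 1.73 CPM in mutant replicates 1 to 3, against 3.596, 3.35 and 3.61 CPM in control replicates 1 to 3. The groups did not overlap, and the log2 fold change was -1.66 with an SE of 0.36 (edgeR adjusted p = 0.321). DESeq2 called Dtnb (adjusted p = 0.00158), and so did edgeR without the low-count filter (adjusted p = 0.0402). With males only the Dtnb estimate was -1.02.

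The 9 extracellular ligands of dystroglycan and the sarcoglycans were all tested, 0 were called, and 6 estimates were higher and 3 lower, with a median log2 fold change of 0.07. Bgn, biglycan, a matrix proteoglycan that binds sarcoglycans, was at 94.0, 69.6 and 184 CPM in mutant replicates 1 to 3, against 51.9, 62.8 and 102 CPM in control replicates 1 to 3. It was highest in mutant replicate 3, a library with high collagen genes, and its log2 fold change was 0.68 with an SE of 0.41 (edgeR adjusted p = 0.819). The Bgn estimate was 0.18 without mutant replicate 3, 1.01 without control replicate 3 and 1.35 with males only. Lamb2, the laminin beta2 chain of synaptic basement membrane, was at 149, 152 and 165 CPM in mutant replicates 1 to 3, against 119, 149 and 144 CPM in control replicates 1 to 3. Its log2 fold change was 0.18 (edgeR adjusted p = 0.866).

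Of 18 genes that build the laminin-binding sugar chain of alpha-dystroglycan 15 were tested and 0 called, with 8 estimates higher and 7 lower and a median of 0.01. Pomk, a kinase that phosphorylates a mannose of that chain, was at 21.2, 20.9 and 19.6 CPM in mutant replicates 1 to 3, against 15.9, 10.6 and 13.96 CPM in control replicates 1 to 3. All mutants were above all controls, with a log2 fold change of 0.61 and an SE of 0.17 (edgeR adjusted p = 0.523).

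The cytoskeletal partners, 10 genes of which 9 were tested, had 5 estimates higher and 4 lower, a median of 0.02 and 0 calls. Ank3, ankyrin G, which helps to place dystrophin at costameres, was at 112, 118 and 138 CPM in mutant replicates 1 to 3, against 115, 193 and 138 CPM in control replicates 1 to 3 (log2 fold change -0.28, edgeR adjusted p = 0.851). Map4, a microtubule-associated protein, was at 709, 743 and 722 CPM in mutant replicates 1 to 3, against 661, 1052 and 779.5 CPM in control replicates 1 to 3. Both were highest in control replicate 2, as Dmd was, and the Map4 estimate of -0.20 (edgeR adjusted p = 0.901) was 0.0076 without that library.

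Of 12 genes proposed to regulate utrophin 11 were tested and 0 called, with 6 estimates higher and 5 lower and a median of 0.03. Eef1a2, an elongation factor of muscle and neurons, was at 2102, 1874 and 2211 CPM in mutant replicates 1 to 3, against 1784, 1835 and 1661 CPM in control replicates 1 to 3. Its groups did not overlap, and the log2 fold change was 0.23 (edgeR adjusted p = 0.837). Gabpb1, a subunit of the GABP factor that binds the Utrn promoter, was at 6.42, 6.64 and 7.71 CPM in mutant replicates 1 to 3, against 7.84, 7.34 and 9.20 CPM in control replicates 1 to 3. Its log2 fold change was -0.23 (edgeR adjusted p = 0.846), and its groups overlapped.

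The authors' deposited table, made with DESeq2, holds 20547 genes, of which 205 have an adjusted p under 0.05, and 0 of these are among the 8. In the authors' deposited table the log2 fold changes are -0.41 for Dmd, -0.14 for Utrn, -0.08 for Dag1, -0.21 for Sgca, -0.35 for Sgcb, -0.65 for Sgcd, 0.22 for Sgce and 0.10 for Sspn. The smallest adjusted p of the 8 in the authors' deposited table is 0.722, for Sgcd.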

How the data were processed

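Libraries were directional and poly(A)-selected, read in pairs of 61 bp, per the labels' protocols. Raw counts of read pairs were deposited, in a matrix equal to the unstranded column of the per-library files in 57010 of 57010 genes, beside strand-specific counts. Among the tools, the submitters' processing notes list STAR 2.7.11b and DESeq2 1.50.2, with the build GRCm39. Which gene annotation was used is not stated there. Entries that name no gene were 18.5% to 22.3% of pairs and were left out. The authors' deposited table holds log2 fold changes and their errors, Wald scores, p-values and a mean normalized signal. Of these only log2 fold changes and adjusted p-values were copied.

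Counts were tested with edgeR 4.0.16 (R 4.3.3): TMM, filterByExpr (minimum count 10), robust quasi-likelihood F-test without covariates, Benjamini-Hochberg adjustment over 15589 genes, calls at 0.05. A count of 3 equals 0.0680 to 0.0827 CPM, for counting error only. Alternatives were RLE and upper-quartile scaling, DESeq2 1.42.0, limma-voom (limma 3.58.1), no filter, 1 CPM in 3 libraries, sex as covariate, replicate block, males only, each library left out, strand-matched counts, no X or Y genes, and a threshold of 0.1. Symbols matched 52029 identifiers. Exon lengths and neighbours came from GENCODE M21. Figures were drawn with matplotlib 3.10.9. Named genes were all 8 members, the called or else the 2 genes of smallest p of each related list, Dysf, and the 3 genes most like Dmd, Utrn and Dag1. Members, lists and tests were chosen with earlier results of these data known. Some of the genes taken by this rule were left out here.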

Additional observations from a re-analysis of the deposited data

How the results depend on the processing

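The 8 members had 0 calls in all 18 alternatives, and the smallest adjusted p of any was 0.367, for Sgcd with the replicate block (log2 fold change -0.66). The replicate numbers were not shown to pair the animals, since deviations of same-numbered animals correlated at 0.17, -0.06 and 0.18. With that block 11 genes were called in all. Over all genes, calls were 31 with all libraries, 201 with DESeq2, 79 without the filter, 0 with sex as a covariate (882 at an unadjusted p under 0.05), 0 with males only (594) and 6 to 49 with a library left out. The low counts were 7 without mutant replicate 1 and 6 without mutant replicate 2, and the high one was 49 without control replicate 2. Among partners DESeq2 called 2, among them Dtnb, and edgeR without the filter 1 (Dtnb). Utrn had 0.27 with sex as a covariate and with males only, and -0.39 to 0.073 with a library left out. Dag1 had 0.16 with sex as a covariate and with males only, and -0.23 to 0.099 with a library left out. With a library left out, Dmd had -0.55 to -0.13, Sgca -0.32 to -0.096, Sgcb -0.58 to 0.042, Sgcd -0.96 to -0.41, Sgce 0.11 to 0.31, Sspn -0.18 to 0.29 and Map4 -0.35 to 0.0076. The sarcoglycan to Dmd ratio had -0.18 to 0.45. By longest coding transcript Sgce was in place 7 and Utrn in place 8. Dysf did not pass with sex as a covariate, with males only or without any single mutant. Dmd has no value without X and Y genes. The largest shift of the median gene was 0.03. The causes were not tested.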

Other observations

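Some genes of the lists above that the naming rule did not take are given here, chosen after their values were seen. Krt8, a keratin of costameres, was at 0.0793, 0.221 and 0.229 CPM in mutant replicates 1 to 3. In control replicates 1 to 3 Krt8 was at 1.42, 181 and 0.102 CPM. It did not pass the low-count filter and was not tested, and its high library is the one with high Sln and Chrng. Its partner Krt19 lay between 0.344 and 1.07 CPM in mutants and between 0.566 and 0.774 CPM in controls.

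Aqp4, the water channel of the fibre membrane, was at 42.9, 29.8 and 144 CPM in mutant replicates 1 to 3, against 73.7, 67.0 and 61.3 CPM in control replicates 1 to 3, with the male mutant above and the female mutants below every control. Its log2 fold change was 0.10 (edgeR adjusted p = 0.987).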
